A study of Mus musculus with 15 samples.

Results

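*Prdm1*, *Irf4*, *Xbp1*, *Ell2*, *Jchain*, and *Mzb1* are regulators and effectors of the plasma cell, the cell that secretes antibody. They were found by gene symbol in the deposited table, in which they are 6 of 21669 genes with a symbol, and all 6 were among the 11299 genes tested. RNA was measured in B cells of wild-type female C57BL/6J mice. CD43- B cells depleted of CD43+ cells on a magnetic column gave the naive group (nB), with no stimulation and no drug. Such cells were also cultured for 3 days with LPS, Il2, and Il5, and with either DMSO, the vehicle, or 2 µM GSK343, an inhibitor of the histone H3K27 methyltransferase EZH2. From each culture, B220+GL7+CD138- activated B cells (actB) and CD138+ plasmablasts (Pb) were sorted. The labels of Pb with GSK343 name Il6 where those of all other cultured groups name Il5. The culture protocol of the labels and the methods of the study give Il5 for all cultures, and actB with GSK343, a sort of the same cultures, are labelled with Il5. If the Il6 label holds, the drug and the cytokine cannot be told apart in Pb. Each of the 5 groups has 3 libraries in the table.

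Plasma cell differentiation is driven by a small circuit of transcription factors. *Prdm1* encodes Blimp-1, a repressor that shuts down the B cell program and *Myc*. *Irf4* encodes a factor needed both for B cell activation and, at a higher dose, for the induction of *Prdm1*. *Xbp1* encodes the factor of the unfolded protein response that enlarges the endoplasmic reticulum (ER), and it becomes active after its mRNA is spliced by the ER sensor IRE1, the product of *Ern1*. *Ell2* encodes an elongation factor of RNA polymerase II that favors the secreted form of the immunoglobulin heavy chain mRNA. *Jchain* encodes the chain that joins secreted IgM and IgA into polymers, and *Mzb1* encodes an ER chaperone of antibody assembly.

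Per library, 19421830 to 26307413 reads were counted. A count of 0 allows up to 3 reads, at most 0.154 RPM, the reads of a gene scaled to a fixed library total. Levels are given as RPKM, the RPM per kilobase of gene, on which genes of different length can be compared. Replicates 1 and 2 of nB were closer than sampling noise alone would leave 2 separate libraries (chi-square per degree of freedom 0.00958, against at least 3.58 for any other replicate pair). Of the 14442 genes compared between them, 79.5% had the same read count, against at most 1.845% in any other pair. They were therefore taken as 1 library deposited 2 times and counted as 1. Hence n = 2 in nB, and n = 3 in actB and Pb of either treatment. In each cultured group, replicate 2 stood apart from replicates 1 and 3 by the same chi-square. In actB with DMSO it was 26.7 and 23.4 for the pairs with replicate 2, against 3.80 for replicates 1 and 3. In Pb with GSK343 it was 11.4 and 7.64, against 3.68. In checks of the labels, the sort marker of Pb, *Sdc1* (CD138), lay at 0.665 ± 0.121 RPKM (SD) in actB with DMSO and at 29.7 ± 0.826 in Pb with DMSO. The target of the drug, *Ezh2*, was at 14.03 ± 0.356 RPKM in nB and 101.2 ± 6.26 in actB with DMSO, and it was not called lower with GSK343 in either cell type. In actB with GSK343, *Ezh2* was at 120.4 ± 12.4 RPKM (log2 fold change 0.25, adjusted p = 0.0705), and it was called higher there with the replicate number as a block (adjusted p = 0.00218). Markers of myeloid cells, 8 genes, summed to 195 to 239 RPKM in nB, 4.14 to 5.44 in actB with DMSO, and 0.484 to 0.932 in Pb with DMSO. Markers of T and NK cells, 7 genes, summed to 24.1 to 26.1 RPKM in nB and to at most 0.653 in any cultured library. Their part in the differences from nB was not tested.

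In the mm9 genome, *Prdm1* lies at chr10:44156983-44248307 on the minus strand, *Irf4* at chr13:30841095-30858796 on the plus strand, and *Xbp1* at chr11:5420662-5425896 on the plus strand. *Ell2* lies at chr13:75844932-75909804 on the plus strand. *Jchain*, listed in the annotation by its older symbol *Igj*, lies at chr5:88949537-88956916 on the minus strand. No exon of these 5 genes shares a base with an exon of another annotated gene, and *Mzb1* is given here by name and values alone. The 250 bases before the RefSeq start of each of the 5 genes were searched on both strands for 10 motifs of factors that act in B cells and secretory cells. *Prdm1* has 3 annotated starts, and its RefSeq start and window lie inside the gene span given above, not at its outer end. Of the windows, 3 held a match and are shown here for where it lies. They are written 5′ to 3′ in the direction of the gene, with the match in capitals. In *Prdm1* it is a loose form of the AP-1 motif, TGANTCA with any base allowed at N and A found there. In *Irf4* it is the TATA box letters TATAAA, and in *Ell2* the cyclic AMP response element TGACGTCA.
Prdm1 (chr10:44178555-44178804, minus strand): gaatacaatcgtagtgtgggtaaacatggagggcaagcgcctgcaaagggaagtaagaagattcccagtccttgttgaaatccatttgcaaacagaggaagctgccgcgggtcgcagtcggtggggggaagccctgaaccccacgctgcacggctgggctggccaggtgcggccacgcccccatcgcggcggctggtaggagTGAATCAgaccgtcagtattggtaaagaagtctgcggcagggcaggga
Irf4 (chr13:30840852-30841101, plus strand): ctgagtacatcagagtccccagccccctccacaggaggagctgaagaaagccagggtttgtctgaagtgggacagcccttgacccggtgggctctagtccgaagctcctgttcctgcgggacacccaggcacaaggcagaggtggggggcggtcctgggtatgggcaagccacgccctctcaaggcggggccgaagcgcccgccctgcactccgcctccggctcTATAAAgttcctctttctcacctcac
Ell2 (chr13:75844682-75844931, plus strand): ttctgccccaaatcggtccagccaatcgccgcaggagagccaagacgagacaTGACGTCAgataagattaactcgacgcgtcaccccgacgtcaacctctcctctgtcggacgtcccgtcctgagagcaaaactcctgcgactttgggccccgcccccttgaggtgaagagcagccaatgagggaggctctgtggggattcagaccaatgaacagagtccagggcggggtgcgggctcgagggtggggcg

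The AP-1 letters in *Prdm1* ended 42 bases before the start, the TATA letters in *Irf4* 21 bases, and the TGACGTCA of *Ell2* 191 bases. Of 32851 mouse promoters of the same length, 6.75% held the AP-1 letters, 12.4% the TATA letters, and 1.55% TGACGTCA. The windows of *Xbp1* and *Jchain* held none of the 10 motifs. The other 7, which none of the 5 windows held, were the interferon response type GAAANNGAA, the composite ETS and IRF type GGAANNGAA, the XBP1 core GACGTG, the E-box CACGTG, the octamer ATGCAAAT, the Blimp-1 core GTGAAAG, and the STAT type TTCNNNGAA. These motifs were held by 7.13%, 6.99%, 5.2%, 6.02%, 1.6%, 3.57%, and 7.02% of all promoters, in that order. A match of letters is a description of the window and not of binding.

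The course from nB to actB to Pb with DMSO was compared first, to see how far each gene was raised in CD138- and in CD138+ cells. Both were sorted from the same cultures after 3 days, so the steps are differences between sorted cells and were not followed in time. In actB, 5 of the 6 genes had risen from nB, and *Irf4* had not. In Pb, all 6 were higher than in actB and higher than in nB. *Prdm1* rose farthest from nB and *Irf4* least, while *Jchain* rose farthest between actB and Pb. In bulk RNA, a larger share of cells that express a gene and more RNA per cell cannot be told apart.

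*Prdm1* was near the lower limit of the genes tested in nB. The libraries of nB held 1.25 and 1.18 RPKM of *Prdm1*, from 154 to 164 reads. In actB with DMSO, the *Prdm1* libraries stood at 31.3, 29.9, and 32.6 RPKM, and in Pb with DMSO at 115.5, 120.8, and 125.5 RPKM. The 3 groups were far apart, with no overlap at either step. The log2 fold change of *Prdm1* was 4.43 (SE 0.085, adjusted p = 7.9e-13) from nB to actB and 1.94 (SE 0.076, adjusted p = 4.5e-10) from actB to Pb. By rank of the group mean among the genes tested, *Prdm1* moved from 10241 in nB to 2478 in actB and 492 in Pb.

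*Irf4* followed another course. In nB, *Irf4* was already at 127.3 and 112.0 RPKM, about as high as in actB with DMSO, where the libraries held 112.4, 107.0, and 109.0 RPKM. The groups nB and actB overlapped, and the log2 fold change was -0.13 (SE 0.071, adjusted p = 0.122). The call of this step depended on the processing: *Irf4* was called lower in actB in 6 of 14 other settings, with adjusted p from 0.00194 under quantile normalization to 0.185, and also without nB replicate 3 (adjusted p = 0.0311). In Pb with DMSO, *Irf4* reached 357.7, 390.7, and 367.3 RPKM, above all libraries of nB and actB. From actB to Pb the log2 fold change was 1.76 (SE 0.063, adjusted p = 2.4e-10).

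*Xbp1* rose at both steps. Its libraries held 51.2 and 50.3 RPKM in nB, 182.8, 191.4, and 196.4 RPKM in actB with DMSO, and 891.9, 978.8, and 995.7 RPKM in Pb with DMSO. The groups were separate, and the *Xbp1* mean in Pb was the 34th highest of all genes tested. The log2 fold change was 1.90 (SE 0.069, adjusted p = 1.0e-10) from nB to actB and 2.33 (SE 0.062, adjusted p = 3.2e-11) from actB to Pb. The counts per gene do not separate spliced from unspliced *Xbp1* mRNA, so they measure the transcript and not the active factor.

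*Ell2* was the second lowest of the 6 genes in nB, at 10.8 and 10.3 RPKM. Its libraries stood at 33.8, 27.5, and 28.7 RPKM in actB with DMSO and at 132.6, 141.0, and 121.1 RPKM in Pb with DMSO. All Pb libraries were above all actB libraries, and all actB libraries above nB. The log2 fold change of *Ell2* was 1.48 (SE 0.087, adjusted p = 7.9e-09) and then 2.13 (SE 0.077, adjusted p = 2.6e-10).

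The effector genes *Jchain* and *Mzb1* reached the highest levels. *Jchain* libraries held 46.0 and 45.9 RPKM in nB and 193.0, 155.7, and 183.6 RPKM in actB with DMSO. In Pb with DMSO, they held 1671, 1636, and 1697 RPKM. The step from actB to Pb was the larger one for *Jchain*, with a log2 fold change of 3.24 (SE 0.095, adjusted p = 5.3e-11) after 1.94 (SE 0.107, adjusted p = 4.5e-09) from nB to actB. *Mzb1* started higher, at 143.8 and 150.3 RPKM in nB, and stood at 475.2, 546.4, and 488.4 RPKM in actB with DMSO. Its Pb libraries with DMSO held 1556, 1665, and 1653 RPKM. The 2 steps of *Mzb1* were of like size on the log2 scale, at 1.77 (SE 0.087, adjusted p = 1.5e-09) and 1.69 (SE 0.078, adjusted p = 1.6e-09). In Pb, *Jchain* and *Mzb1* ranked 3rd and 4th of all genes tested.

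**Figure D1:**
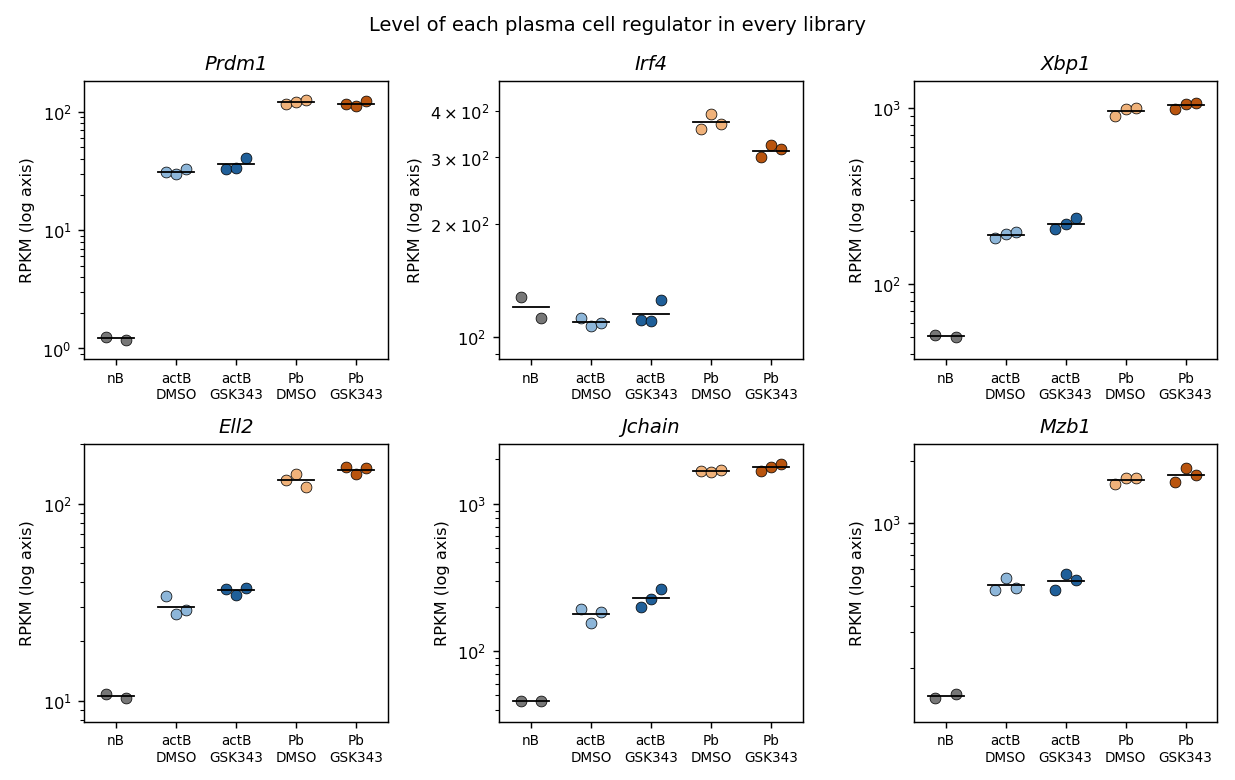
RPKM of the 6 genes in every library, with 1 panel per gene and a log vertical axis that differs between panels. Each point is 1 library (nB replicates 1 and 2 averaged as 1 point) and the bar is the group mean; *Irf4* in nB lies at the level of actB, and all other genes climb at both steps.

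As a description set after the values were seen, the ratio of *Jchain* to *Mzb1* RPKM within a library was 0.313 ± 0.0104 (SD, n = 2) in nB and 0.356 ± 0.0631 (n = 3) in actB with DMSO. Pb had a ratio of 1.03 ± 0.0454 with DMSO and 1.03 ± 0.0624 with GSK343. The 2 genes were thus near equal per length in Pb, while *Mzb1* was the more abundant in nB and actB.

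Large changes were common at these steps. Between actB and nB, 40.9% of the genes tested were called higher and 36.3% lower, against 5 of the 6 genes called higher and none lower. Between Pb and actB with DMSO, 27.3% of all genes were called higher and 42.4% lower, and all genes together had a median log2 fold change of -0.12. These 3086 and 4791 genes were 3813 and 3899 with median scaling, under which all 6 genes kept their calls. All 6 genes were called higher at that step, and each lay above the 96.9th percentile of the fold changes. Between Pb with DMSO and nB, 39.5% were called higher and 41.1% lower, and the 6 genes rose by 1.64 (*Irf4*), 3.46 (*Mzb1*), 3.61 (*Ell2*), 4.23 (*Xbp1*), 5.17 (*Jchain*), and 6.36 (*Prdm1*) on the log2 scale. The comparisons of stages share the actB, nB, and Pb libraries, so their values are not independent. Every call of these 6 genes in Pb against actB or nB was kept in the other settings tried, also when any single library was left out.

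The same step under GSK343, from actB with GSK343 to Pb with GSK343, had 26.4% of all genes called higher and 44.2% lower (2978 and 4992 genes, and 3832 and 3871 with median scaling). The 6 genes were again all called higher. *Prdm1* rose by 1.70, *Irf4* by 1.44, *Xbp1* by 2.23, *Ell2* by 2.03, *Jchain* by 2.94, and *Mzb1* by 1.71 on the log2 scale. These values differ from those of the DMSO cultures by the difference of the GSK343 effect tested below.

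**Figure D2:**
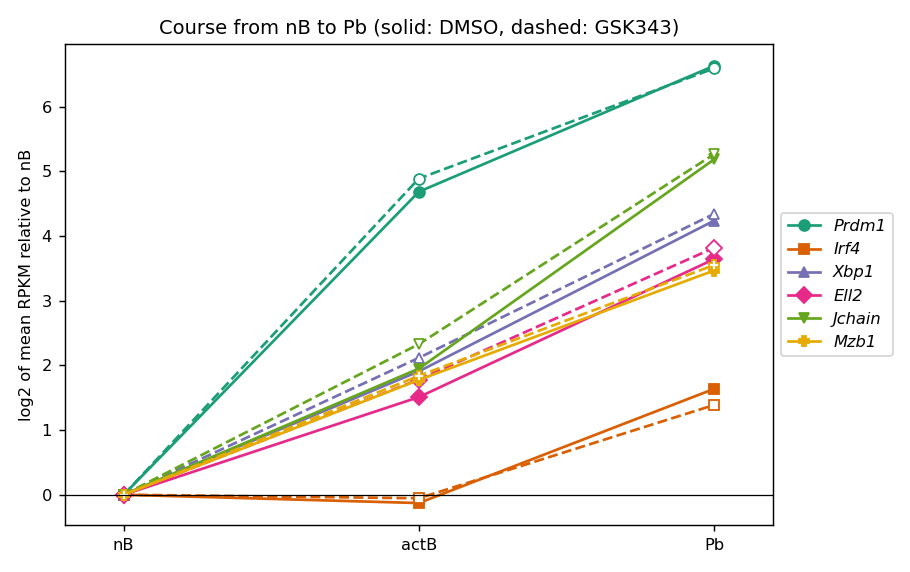
Mean RPKM of each gene relative to its mean in nB, as log2, in nB, actB, and Pb, with solid lines for DMSO and dashed lines for GSK343. *Prdm1* rises most, and *Irf4* lies near its nB level in actB and above it in Pb. The lines of the 2 treatments lie close together for each gene.

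The effect of GSK343 was then compared with DMSO within actB, to see whether the inhibitor moved these genes in cells of one sort. *Ell2* and *Jchain* were called higher with GSK343 in actB, *Prdm1*, *Xbp1*, *Irf4*, and *Mzb1* were not called, and none was called lower. Of all genes tested, 8.2% were called higher and 2.16% lower. These 926 and 244 genes were 690 and 370 with median scaling, which sets the median log2 ratio of each library to 0, and 606 and 378 with quantile normalization. The log2 fold changes were small, at most 0.37, against a median of 0.03 over all genes.

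*Jchain* libraries in actB with GSK343 held 200.3, 227.0, and 264.7 RPKM, all above the DMSO libraries, the highest of which was 193.0 RPKM. The log2 fold change was 0.37 (SE 0.095, adjusted p = 0.0277). *Ell2* libraries in actB with GSK343 held 36.8, 34.5, and 37.4 RPKM, again all above DMSO, of which the highest was 33.8 RPKM. The log2 fold change of *Ell2* was 0.27 (SE 0.077, adjusted p = 0.0425). These calls lay close to the threshold. That of *Jchain* was lost without actB DMSO replicate 2 (adjusted p = 0.0669), actB DMSO replicate 3 (0.0591), actB GSK343 replicate 2 (0.0502), or actB GSK343 replicate 3 (0.104). It was kept in 11 of 14 other settings. The settings that lost it were no filter on low values (0.0548), the compared groups alone (0.175), and no replicate 2 in any cultured group (0.101). The call of *Ell2* was lost without actB DMSO replicate 2 (adjusted p = 0.104), actB DMSO replicate 3 (0.136), actB GSK343 replicate 1 (0.110), or actB GSK343 replicate 3 (0.138). It was kept in 7 of 14 other settings. Among those that lost it were median scaling (0.0768), edgeR on the reads (0.0721), and the compared groups alone (0.152). Within the pairs of the same replicate number, the log2 ratio of GSK343 to DMSO was 0.05, 0.54, and 0.53 for *Jchain*, so that pair 1 was near 0, and 0.12, 0.32, and 0.38 for *Ell2*.

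*Xbp1* and *Prdm1* were also higher in every GSK343 library of actB than in any DMSO library. *Xbp1* stood at 203.8, 218.7, and 237.4 RPKM with GSK343, a log2 fold change of 0.21 (SE 0.062, adjusted p = 0.0534). *Prdm1* stood at 33.1, 33.9, and 41.1 RPKM with GSK343, a log2 fold change of 0.20 (SE 0.076, adjusted p = 0.125), which was 0.098 (adjusted p = 0.407) without actB GSK343 replicate 3. With the replicate number as a block, both were called, with adjusted p of 0.00731 for *Xbp1* and 0.0356 for *Prdm1*, and the number of the 6 genes called rose from 2 to 4. Of all genes, 14.7% were called higher and 6.71% lower with the block, in place of 8.2% and 2.16%. Within the same pairs, the log2 ratio was 0.16, 0.19, and 0.27 for *Xbp1* and 0.08, 0.18, and 0.33 for *Prdm1*.

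*Irf4* and *Mzb1* overlapped between the treatments in actB. *Irf4* was at 111.0, 109.8, and 124.9 RPKM with GSK343 (log2 fold change 0.07, 95% interval -0.07 to 0.21, adjusted p = 0.549). *Mzb1* was at 477.4, 569.7, and 530.5 RPKM (log2 fold change 0.06, 95% interval -0.11 to 0.23, adjusted p = 0.697). Of the 6 genes in actB, 4 did not overlap between treatments and were higher, against 18.3% of all genes that did not overlap and were higher and 7.52% that did not overlap and were lower.

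Of the 5 markers of activated B cells, none was called between the treatments of actB. Myeloid markers summed to 8.31 to 14.1 RPKM in actB with GSK343, against 4.14 to 5.44 with DMSO, and 2 of 7 tested were called higher, *Itgam* (CD11b) among them with a log2 fold change of 1.14. That sum was carried mostly by *Itgam*, at 4.27 ± 0.664 RPKM with DMSO and 9.95 ± 3.12 RPKM with GSK343. The median log2 fold change of the list was 0.08, and 8.2% of all genes were called higher. *Adgre1* was at 0.147 ± 0.0208 RPKM with DMSO and 0.437 ± 0.0433 RPKM with GSK343, and *Lyz2* at 0.422 ± 0.159 and 0.772 ± 0.395 RPKM. *Csf1r*, at 0.0189 ± 0.0147 and 0.0347 ± 0.0146 RPKM, and *Cd14*, at 0.0461 ± 0.0162 and 0.0361 ± 0.0625 RPKM, were near 0 in both. The granulocyte markers *S100a8* and *S100a9* were at 0 RPKM in all actB libraries. *Sdc1*, by which actB were gated as negative, was at 0.769, 0.694, and 0.532 RPKM with DMSO and at 1.16, 0.774, and 0.962 RPKM with GSK343 (log2 fold change 0.41, adjusted p = 0.0422). The *Sdc1* call was kept in 9 of 14 other settings and in 2 of 6 fits with 1 library left out, with log2 fold changes from 0.21 to 0.55. The part of these shifts in the values of the 6 genes was not tested.

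In Pb, the inhibitor was compared with DMSO in the same way, and the one gene called was *Irf4*, which fell. *Irf4* libraries held 300.3, 323.0, and 315.4 RPKM with GSK343, all below those with DMSO, the lowest of which was 357.7 RPKM. The *Irf4* mean was 0.841 of the DMSO mean, with a log2 fold change of -0.25 (SE 0.063, adjusted p = 0.0225), and the ratio was negative in each of the 3 replicate pairs, at -0.25, -0.27, and -0.22. The call was lost without Pb DMSO replicate 2 (adjusted p = 0.0798), Pb DMSO replicate 3 (0.0566), Pb GSK343 replicate 1 (0.0903), or Pb GSK343 replicate 3 (0.0674). It was also lost without replicate 2 of every cultured group (0.0516), a setting added after the data were seen. Of all genes tested in Pb, 7.9% were called higher and 5% lower (13.7% and 10.9% with the block).

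The other transcription factors changed less in Pb. *Prdm1* held 116.1, 112.0, and 123.6 RPKM with GSK343, within the range of DMSO or just below it (log2 fold change -0.04, 95% interval -0.21 to 0.12, adjusted p = 0.797). *Xbp1* held 984.3, 1044, and 1056 RPKM, which overlapped DMSO (log2 fold change 0.11, 95% interval -0.03 to 0.24, adjusted p = 0.303). The intervals bound the change of these 2 genes but do not show that there was none.

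*Ell2* was again higher in every GSK343 library, at 153.1, 141.1, and 151.6 RPKM, but the lowest of these lay just above the highest DMSO library at 141.0 RPKM. Its log2 fold change in Pb was 0.18 (SE 0.077, adjusted p = 0.164), and 0.27 (adjusted p = 0.0406) without replicate 2 of every cultured group. *Jchain* held 1670, 1776, and 1848 RPKM (log2 fold change 0.08, 95% interval -0.13 to 0.29, adjusted p = 0.657). *Mzb1* held 1591, 1858, and 1720 RPKM (log2 fold change 0.08, 95% interval -0.09 to 0.25, adjusted p = 0.558). Both overlapped DMSO, and *Jchain* and *Mzb1* ranked 3rd and 4th with GSK343 as well. Of all genes, 18.8% did not overlap and were higher with GSK343 in Pb and 15.3% did not overlap and were lower, against 1 of 6 (*Ell2*) and 1 of 6 (*Irf4*) here.

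**Figure D3:**
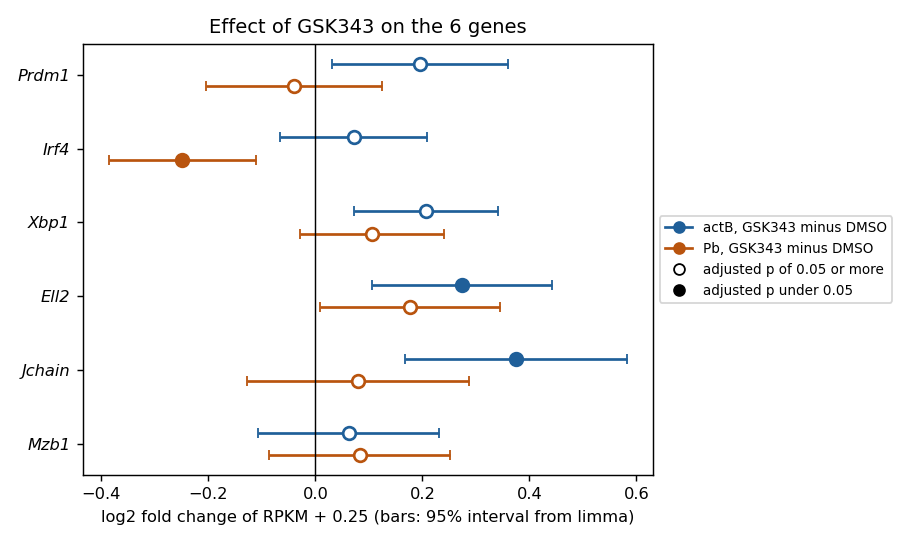
Log2 fold change of RPKM + 0.25 between GSK343 and DMSO for the 6 genes, in actB (blue) and Pb (orange), with 95% intervals from limma. Filled points have an adjusted p under 0.05: *Jchain* and *Ell2* above 0 in actB, and *Irf4* below 0 in Pb.

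Whether the effect differed between cell types was tested by the interaction term, by which 0.248% of all genes, 28 in number, were called in either direction. None of the 6 genes was called by limma. For *Irf4* the difference, Pb minus actB, was -0.32 (SE 0.089, unadjusted p = 0.00367, adjusted p = 0.195). It was -0.24 for *Prdm1* (adjusted p = 0.537) and -0.29 for *Jchain* (adjusted p = 0.551), each with an unadjusted p just under 0.05, at 0.0466 and 0.0492. For *Xbp1*, *Ell2*, and *Mzb1* the difference was -0.10, -0.10, and 0.02 with adjusted p of 0.893, 0.945, and 0.996. None of the 6 was called by edgeR or in any other setting either. The calls of *Ell2* and *Jchain* in actB alone, and of *Irf4* in Pb alone, are thus not shown to be particular to a cell type.

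Among genes of the same circuit, the factors known to hold back *Prdm1* were lower in Pb, where *Prdm1* was high. All 7 tested of 8 were called lower in Pb than in actB with DMSO, against 42.4% of all genes. Their median log2 fold change was -1.78. *Spib*, an ETS factor, fell by 3.38, *Pax5*, the factor of B cell identity, fell by 2.72, and *Bach2*, a repressor that delays plasma cell formation, fell by 2.53 on the log2 scale. With GSK343, 1 of the 7 was called higher in actB, and in Pb 1 was called higher and 1 lower (3 lower with the replicate block). Over all genes, 8.2% were called higher in actB, and 7.9% higher and 5% lower in Pb (10.9% lower with the block). *Bcl6*, whose product represses genes of the plasma cell fate, was the one called higher in both. In actB, *Bcl6* was at 7.62 ± 0.511 RPKM with DMSO against 10.2 ± 0.524 with GSK343 (log2 fold change 0.41, adjusted p = 0.0227). In Pb, *Bcl6* was at 2.08 ± 0.252 RPKM against 3.56 ± 0.399 (0.71, adjusted p = 0.00095). Its call was kept in 1 of 6 fits with 1 library left out in actB and in 6 of 6 in Pb. *Pax5* was the one called lower in Pb, from 29.1 ± 3.36 to 13.8 ± 4.65 RPKM (-1.11, adjusted p = 0.0022).

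Genes known to be repressed by Blimp-1 were lower in Pb as well. All 9 were called lower in Pb than in actB with DMSO, with a median log2 fold change of -2.72, and 8 of 9 in actB than in nB. The shares of all genes called lower at these steps were 42.4% and 36.3%. *Ciita*, the activator of MHC class II genes, fell by 3.51 on the log2 scale. *Pax5*, *Spib*, and *Bcl6* are in this list and in that of the repressors. With GSK343, 2 of the 9 were called higher and 1 lower in actB. In Pb, 2 were called higher and 2 lower, and with the block 3 were called higher and 4 lower. The shares of all genes called higher and lower were 8.2% and 2.16% in actB, and 7.9% and 5% in Pb. With the block they were 13.7% and 10.9% in Pb. Of 8 corepressor partners of Blimp-1, 6 were called lower and none higher in Pb than in actB with DMSO, against 42.4% and 27.3% of all genes. Their median log2 fold change was -0.37, against -0.12 over all genes. The largest fall was that of the deacetylase gene *Hdac1*, by 1.26. None of the 8 was called with GSK343 in actB by limma without the block. With the block, 2 were called higher there, against 14.7% of all genes. Without the block, *Ehmt2*, a histone H3K9 methyltransferase, was the one called in Pb, at -0.23, where 5% of all genes were called lower.

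Other members of the IRF family were mixed. Of 7 tested of 8, 1 was called higher and 3 lower in Pb than in actB with DMSO (5 lower with the block), against 27.3% and 42.4% of all genes, so that the counts do not set the list apart. *Irf7*, a factor of the interferon response, was the one called higher, by 1.82, and *Irf8*, a partner of PU.1 in B cells, fell by 1.78 on the log2 scale. In Pb, GSK343 left 6 of the 7 not called, and *Irf5* was called lower at -0.26. With the block, 3 of the 7 were called lower. The share of all genes called lower in Pb was 5%, and 10.9% with the block.

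Genes upstream of XBP1 and its ER targets rose with it. In Pb with DMSO, 15 of 16 were called higher than in actB and 1 lower, against 27.3% and 42.4% of all genes. The median log2 fold change of the list was 1.503. *Ern1*, the IRE1 gene, went from 13.8 ± 2.21 to 55.4 ± 1.98 RPKM, a log2 fold change of 1.998, and *Edem1*, of ER degradation, rose by 1.98. The one gene called lower was *Rtcb*, the ligase that joins the spliced *Xbp1* mRNA, from 120.5 ± 5.96 to 87.0 ± 1.21 RPKM, which is named after its value was seen because it is the single exception. With GSK343, 2 of the 16 were called higher in actB and 3 in Pb, and none lower, against 8.2% and 7.9% of all genes called higher. With the block, 5 were called higher and 1 lower in actB, and 4 higher in Pb, against 14.7% of all genes called higher in actB, 6.71% lower in actB, and 13.7% higher in Pb. In actB without the block, 1 of the 16 was called higher with median scaling. None was called there with edgeR on the reads or with the compared groups alone. *Dnajc3*, an ER cochaperone, was called in both, at 0.21 in actB and 0.20 in Pb, and kept its call in 3 of 6 fits with 1 library left out in each.

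Partners of *Ell2* in the elongation complexes were mixed. Of 12 tested, 4 were called higher and 5 lower in Pb than in actB with DMSO, near the 27.3% and 42.4% of all genes. The median log2 fold change was -0.08, against -0.12 over all genes. *Eaf2*, whose product binds ELL proteins, rose from 19.9 ± 1.73 to 137.5 ± 5.60 RPKM (log2 fold change 2.78), to about the level of *Ell2* itself at 131.6 ± 9.98 RPKM. *Ell3*, of the same family as *Ell2*, was at 40.5 ± 3.98 RPKM in nB and 1.41 ± 0.160 RPKM in actB with DMSO, a log2 fold change of -4.62. *Ell2* was thus at 10.5 ± 0.375 RPKM in nB, below *Ell3*, and above it from actB on. By limma without the block, none of the 12 was called with GSK343 in actB or Pb. Of all genes, 8.2% were called higher and 2.16% lower in actB, and 7.9% and 5% in Pb. With the block, 2 of the 12 were called higher in actB and 0 were called in Pb. The shares of all genes called with the block were 14.7% higher and 6.71% lower in actB, and 13.7% and 10.9% in Pb.

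Genes of antibody folding and assembly, in which *Jchain* and *Mzb1* act, share *Hspa5* and *Pdia4* with the XBP1 list. They were all called higher in Pb than in actB with DMSO, 12 of 12, against 27.3% of all genes. Their median log2 fold change was 1.69. *Fkbp11*, an ER prolyl isomerase, rose by 3.95, *Txndc5*, a disulfide isomerase, by 2.79, and *Creld2*, an ER stress gene, by 2.31 on the log2 scale. With GSK343, 2 of the 12 were called higher in each cell type, *Txndc5* (0.22 in actB and 0.18 in Pb) and the chaperone gene *Hsp90b1* (0.20 and 0.18). These counts were 0 in both cell types with median scaling, and with the block 1 gene in actB and 3 in Pb were called lower besides. Of 13 other plasma cell genes, 10 were called higher and 3 lower in Pb than in actB, against 27.3% and 42.4% of all genes. The largest rise was that of *Tnfrsf17*, the receptor BCMA, at 5.55. With GSK343, 3 of the 13 were called higher and 1 lower in actB, and 2 higher and 2 lower in Pb. With the block, 6 were called higher and 3 lower in actB, and 5 higher and 3 lower in Pb. The shares of all genes called higher and lower were 8.2% and 2.16% in actB, and 7.9% and 5% in Pb. With the block they were 14.7% and 6.71% in actB, and 13.7% and 10.9% in Pb. The gene called lower in actB was *Slamf7*, a surface receptor, at -0.43, and *Pou2f2*, the factor OCT2, was called lower in Pb at -0.45. *Sdc1* is in this list and was the sort marker, so its rise of 5.04 at this step is no finding. Within Pb, which were gated as positive for it in both treatments, *Sdc1* was at 28.8, 30.4, and 29.8 RPKM with DMSO and at 58.8, 53.3, and 53.7 RPKM with GSK343, a log2 fold change of 0.89 (adjusted p = 0.00058).

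**Figure D4:**
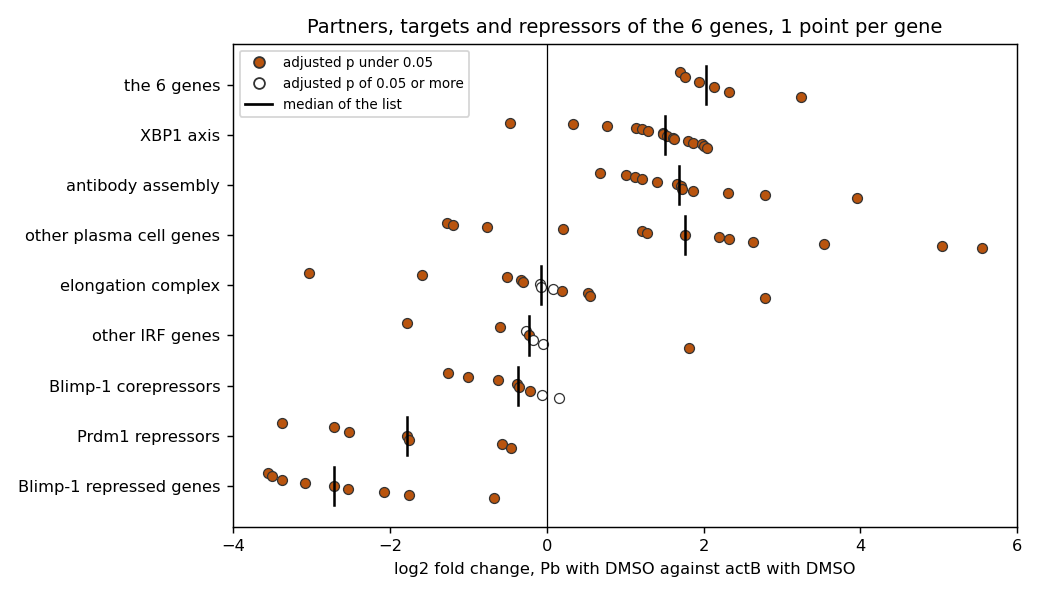
Log2 fold change between Pb and actB with DMSO for the 6 genes and for lists of their partners, targets, and repressors, with 1 point per gene tested and a bar at the median of each list. Filled points have an adjusted p under 0.05; the XBP1 axis and antibody assembly lie with the 6 genes to the right, and the repressors of *Prdm1* and the genes repressed by Blimp-1 lie to the left.

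Markers of naive B cells were lower in Pb with GSK343 than with DMSO. Of 6 markers, 3 were called lower and none higher in Pb, with a median log2 fold change of -0.65, and their summed level was 194 to 211 RPKM with DMSO and 121 to 162 RPKM with GSK343. The largest fall called was that of *Fcer2a* (CD23), by 1.56 on the log2 scale. Their sum in actB was 880 to 1076 RPKM with DMSO and 836 to 1003 RPKM with GSK343, where 1 of 6 was called, lower. With the block, 6 of 6 were called lower in Pb and 2 of 6 in actB. Over all genes, 5% were called lower in Pb and 2.16% in actB, and 10.9% and 6.71% with the block. The 6 plasma cell genes themselves summed to 1029 to 1058 RPKM in actB and 4725 to 4960 RPKM in Pb with DMSO. As these are the genes under study, their sum is no separate check of the sort. The part of cell composition in the fall of *Irf4* was not tested.

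The genes most like each of the 6 were sought over the 14 libraries, by the root mean square difference of log2(RPKM + 0.25) after each gene was centred on its mean. The match was closest for *Xbp1* and *Creld2*, at 0.0949 log2 units. For *Irf4*, the nearest were *Sec23a* (0.118), of COPII transport, and *Atg13* (0.125), of autophagy. For *Ell2*, they were *Ssr2* (0.120), of the translocon, and *Hspa13* (0.125). *Mzb1* was nearest to *Rpn1* (0.132), of N-glycosylation, and *Manf* (0.142). *Jchain* was nearest to *C4bp* (0.189) and *Fndc3b* (0.214), and *Prdm1* had the least close match, *Chac1* (0.254) and *Vegfa* (0.278). The second match of *Xbp1* was *Ankrd55* (0.169). Among the 6, *Xbp1* and *Ell2* were most alike (0.226) and *Prdm1* and *Irf4* least (1.66). The libraries of 3 cell types share these patterns with many genes, so the likeness is a description alone.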

How the data were processed

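The deposited values are RPM, although the table is named for RPKM. Per the labels and the methods, the authors made poly(A) libraries from 500 ng of total RNA with a stranded kit, sequenced 50 bp paired-end reads, mapped them with TopHat2 to mm9, and counted reads over the exons of each Entrez gene with GenomicRanges. Whether counting used strand is not stated. The columns all have one total, and 100% of the values were whole multiples of 1 read, so that reads could be recovered. The tolerance was 0.05 read plus a small allowance that grows with the reads of the library. For RPKM, each RPM value was divided by the length of its gene in kilobases, as the table gives it. Rows with no symbol were left out (92 genes, up to 0.0905% of a library's reads).

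The members and lists were chosen with earlier results of these data known. A gene was tested if 3 or more of the 15 columns reached 1 RPKM, which 11299 did. Values of log2(RPKM + 0.25) were fitted by limma 3.58.1 under R 4.3.3, with lmFit and a trended eBayes, over all 14 libraries after nB replicates 1 and 2 were averaged, with 9 residual degrees of freedom. Fold changes are on that scale. Tests were two-sided, and p-values were corrected by Benjamini-Hochberg adjustment across the tested genes, with calls at an adjusted p under 0.05. The study calls the libraries of a cell type biological replicates, while the labels number them without stating separate cultures. If they share one, p-values measure only technical spread. Alternatives were other pseudocounts and filters, quantile and median scaling, no trend, the compared groups alone, a replicate block, all 15 columns, each library left out in turn, and edgeR 4.0.16 quasi-likelihood on the recovered reads (TMM or RLE, at least 3 RPM in at least 3 libraries), which with TMM called 1241 genes with GSK343 in actB and 1499 in Pb.

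Whether the replicate numbers of the titles pair the cultured libraries was examined by correlation across groups, once the group mean was taken off. All pairs that share a number correlated positively, but only those of number 2 all lay above every pair of unlike numbers. Since each group is centred on the mean of 3 libraries, a replicate 2 that stands apart moves replicates 1 and 3 together. Pairing by numbers 1 and 3 was thus not shown. Pearson's r was 0.158 to 0.502 over the 6 pairs of number 1, 0.435 to 0.713 over those of number 2, and 0.219 to 0.356 over those of number 3. Over 36 pairs of unlike numbers r was -0.603 to 0.370.

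Genes named are the 6 members, *Sdc1* and *Ezh2*, per list and comparison up to 3 called genes of the largest absolute log2 fold change that reach 2 RPKM in the mean of a compared group, and the 2 genes nearest to each member among those with a highest group mean of at least 5 RPKM. Outside this rule, *Rtcb*, *Hspa5*, *S100a9*, *Adgre1*, and *Cd14* were named after their values were seen. Promoters are from RefSeq (GRCm38.p6) and were placed in mm9 by exact match of their sequence. Positions are those of GENCODE vM1. Results for some genes of the lists are not reported here.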

Additional observations from a re-analysis of the deposited data

How the results depend on the processing

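Over the 7 comparisons, the values of single genes kept their direction and their side of the threshold in 819 of 864 repeats under other settings, 23 lost a call, 14 gained one, and 8 changed sign. Of the 6 genes in actB with GSK343, 2 were called. The count was 4 with the replicate block, in limma and in edgeR. It was 1 with median scaling, without the trend, and with edgeR by TMM or RLE. It was 0 without a filter, with the compared groups alone, and without replicate 2 of every cultured group, and it was 0 to 2 with 1 library left out. In Pb, the count of 1 was 0 to 1 with 1 library left out. Of all genes, 1170 were called in actB, against 2417 with the block, 2895 with edgeR and the block, 386 with the compared groups alone, and 608 to 1363 with 1 library left out. In Pb, 1458 were called, against 2780 with the block, 2980 with edgeR and the block, and 690 to 1304 with 1 library left out. By the interaction term, 28 were called, against 18 with quantile normalization, 222 with the block, 285 with edgeR and the block, 48 with all 15 columns, 4 with the compared groups alone, 146 without replicate 2 of every cultured group, and 0 to 58 with 1 library left out. With the compared groups alone, fewer samples enter the fit; otherwise the cause was not tested. In limma, the block changed no call of the 6 genes other than those of *Prdm1* and *Xbp1* with GSK343 in actB, and in edgeR by TMM none other than those of *Prdm1*, *Xbp1*, and *Ell2* there.

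Values that changed sign were all near 0 and not called. *Mzb1* in Pb was -0.036 with quantile normalization. Its interaction term was -0.081 with quantile normalization, -0.018 without replicate 2 of every cultured group, and -0.047 to 0.080 with 1 library left out (below 0 without actB DMSO replicate 2, actB GSK343 replicate 1, Pb DMSO replicate 1, or Pb GSK343 replicate 2). The interaction term of *Ell2* was 0.015 without replicate 2 of every cultured group. The fewest reads behind a value of the 6 genes were the 154 of *Prdm1* in an nB library, against the 3 reads that a count of 0 allows.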
